A study of Mus musculus with 12 samples.

Results

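Knockdown of Myc was compared directly with knockdown of Gcn5 in mouse embryonic fibroblasts that had been exposed to doxycycline (dox) for 2 days. The comparison used 4 of the 12 RNA-seq libraries of the series, chosen by their labels: 2 from cells given an siRNA against c-Myc (siMyc) and 2 from cells given an siRNA against Gcn5 (siGcn5, gene symbol Kat2a). Both siRNAs were applied to secondary 1B fibroblasts, a line in which dox switches on reprogramming factors, so both groups carry the same inducible factors and received the same dox treatment. Dox was added 24 h after transfection. The remaining 8 libraries, used here as reference, were 2 siControl libraries with dox and 2 for each of the 3 siRNAs without dox. No label ties the 2 replicates of a group to separate cultures, so each p-value below is set against the spread between libraries alone, and that spread may be technical. Whether a pool or a single siRNA was used for these libraries is not said, since the labels mention both kinds.

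Myc is a transcription factor that binds DNA with its partner Max, often at the hexamer CACGTG (the E-box), and it is known for driving genes of ribosome production, nucleotide synthesis and growth. Gcn5 is a histone acetyltransferase that works inside the SAGA and ATAC coactivator complexes, and Myc is among the factors known to recruit it. In fibroblasts driven towards pluripotency, loss of the fibroblast programme and gain of epithelial genes are early steps.

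Depth was high in all 4 libraries. Whole gene reads recovered from the deposited values numbered 65.5 M and 188 M in siMyc with dox and 102 M and 92.5 M in siGcn5 with dox. The 2 siMyc libraries with dox were the shallowest and the deepest of the 12 libraries, so depth was uneven between these replicates. Replicates correlated across genes at Spearman 0.994 in siMyc with dox and 0.990 in siGcn5 with dox, the lowest of the 6 groups. Of 23284 gene symbols, 13175 reached 1 RPKM (reads per kilobase of transcript, scaled to library size) in at least 2 of the 12 libraries and were tested. Values below are RPKM per library in the order replicate 1, replicate 2. A difference is siMyc minus siGcn5 on the log2(RPKM + 1) scale, where changes of low genes come out too small, with its standard error (SE) and limma's Benjamini-Hochberg adjusted p over all 13175 genes. A gene was called at an adjusted p under 0.05.

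The siRNA targets were read first. Myc stood at 16.9 and 26.2 RPKM in siMyc and at 103 and 129 in siGcn5, against 174 and 155 in siControl with dox. The difference was -2.40 (SE 0.20, limma adjusted p = 2.99e-06). Reads of the endogenous gene and of an inducible Myc copy cannot be told apart in these values. Kat2a stood at 6.27 and 9.11 RPKM in siGcn5, at 18.1 and 19.4 in siMyc and at 55.7 and 53.1 in siControl, so each target was lowest under its own siRNA, and the siMyc libraries also held less Kat2a than the controls. The difference for Kat2a was 1.20 (SE 0.15, limma adjusted p = 5.38e-05), and without dox it was 2.77 (adjusted p of the change = 5.02e-04), where siGcn5 left 1.33 and 1.97 RPKM and siMyc left 17.6 and 16.5.

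The other reprogramming factors were not matched between the knockdowns. Klf4, a zinc finger factor of both skin and pluripotent cells, was higher in siMyc, with 141 and 147 RPKM against 64.2 and 86.5 (difference 0.94, SE 0.15, limma adjusted p = 3.09e-04). Pou5f1, which encodes Oct4, was at 97.9 and 122 RPKM in siMyc and 137 and 200.2 in siGcn5 (difference -0.60, SE 0.17, adjusted p = 0.0094), a call that was lost without siMyc replicate 1 or without siGcn5 replicate 2 (highest adjusted p 0.0845). Sox2 overlapped between the groups, with 15.3 and 18.5 RPKM in siMyc and 13.6 and 25.4 in siGcn5 (difference -0.14, 95% interval -0.64 to 0.35, adjusted p = 0.594), and was called lower only without siGcn5 replicate 1 (adjusted p = 0.0085). In siControl with dox these 3 genes read 116 and 94.4 for Klf4, 288 and 249 for Pou5f1 and 35.1 and 29.1 for Sox2. As for Myc, reads of the endogenous genes and of any inducible copies cannot be told apart for these 3. Most other early pluripotency genes were too low to test: 5 of 16 listed genes passed the filter. Among them Fgf4, a growth factor of pluripotent cells, was higher in siMyc (1.62 and 1.47 against 0.572 and 0.738 RPKM, difference 0.62), and Alpl, the alkaline phosphatase used as an early reprogramming stain, was lower (0.249 and 0.186 against 1.78 and 1.89 RPKM, difference -1.22).

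Across all genes the 2 knockdowns gave widely different transcriptomes. Of 13175 genes, 8687 (65.9%) were called, 3599 higher in siMyc (27.3%) and 5088 lower (38.6%). The values of the 2 groups did not overlap for 10617 genes (80.6%), with siMyc above for 4506 (34.2%) and below for 6111 (46.4%). Differences of at least 1 on the log2 scale were called for 897 genes higher (6.81%) and 876 lower (6.65%) in siMyc. The median difference over all genes was -0.09, with the middle of the distribution between -0.48 and 0.31. Under a scaling by median ratios that median moved to 0.02 and the split to 4533 higher and 4055 lower, so differences of lists are read below against the median of all genes. On principal components of the 12 libraries, the second component (24.4% of the variance) set the siMyc libraries with dox, at 60.1 and 52.5, apart from siGcn5 with dox, at -21.4 and -21.8, and from siControl with dox, at -13.1 and -17.2. With 2 libraries a group, an exact two-sided permutation test of 1 gene could not go below p = 0.333, so calls rest on the spread that limma shares over genes and groups.

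**Figure D1:**
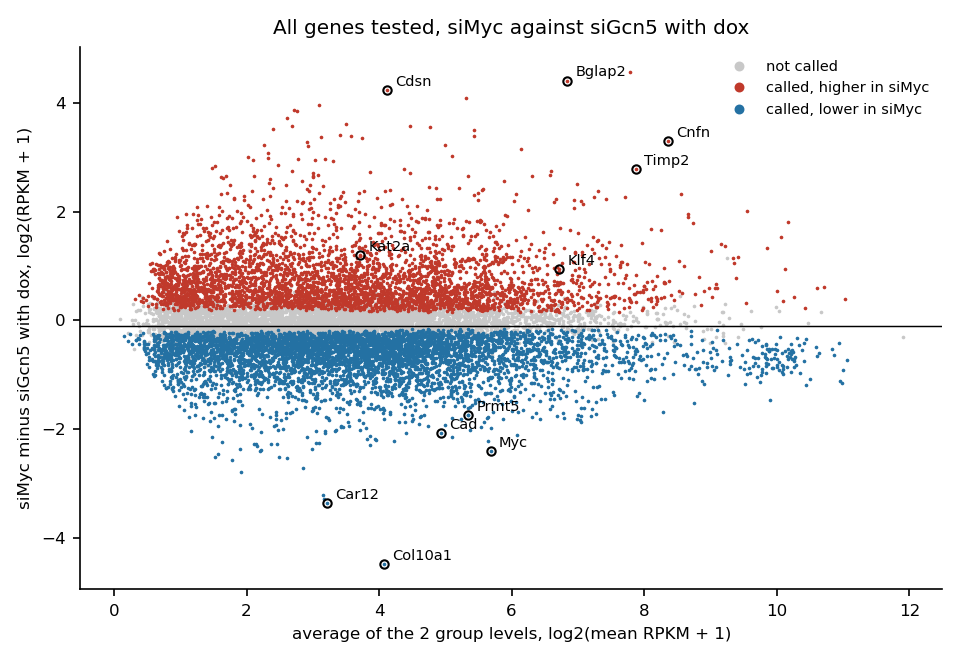
Difference between siMyc and siGcn5 with dox for each of the 13175 genes tested (vertical axis, log2(RPKM + 1), positive where siMyc is higher) against the average level of the 2 groups (horizontal axis, log2(mean RPKM + 1)). Points are genes, red or blue where called and grey where not, the horizontal line is the median of all genes at -0.09, and Cdsn, Bglap2, Col10a1 and Car12 lie far from it.

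The 12 largest differences in favour of siMyc included genes known from bone (Bglap2, Bglap) and from skin (Cdsn, Klk7). Bglap2, a gene for the bone matrix protein osteocalcin, was at 542 and 512 RPKM in siMyc, 21.4 and 26.3 in siGcn5 and 64.9 and 69.4 in siControl with dox (difference 4.42, SE 0.16, limma adjusted p = 3.05e-08). Its near-identical neighbour Bglap read 165 and 161 against 7.79 and 9.42 RPKM (difference 4.09), and reads could have been split between these copies, so the value of each is uncertain. Cdsn, which encodes corneodesmosin of the cornified skin layer, was at 77 and 71.2 RPKM in siMyc against 2.79 and 3.18 in siGcn5, a 24.8-fold difference of the means (log2 difference 4.24, SE 0.26, adjusted p = 5.78e-07). For both genes siControl lay between the knockdowns, nearer to siGcn5, and no siMyc library came near the others. Notum, an enzyme that inactivates Wnt proteins, differed otherwise: siGcn5, at 0.853 and 0.594 RPKM, was close to siControl, at 0.859 and 0.692, while siMyc stood at 23 and 25.6 (difference 3.88, SE 0.10, adjusted p = 5.74e-09). Fgf3, a fibroblast growth factor, read 21.8 and 20.5 in siMyc against 0.495 and 0.860 in siGcn5. The remaining genes among the 12 largest were Nkain4 (3.96), the adhesion receptor Gpr133 (3.86), Olfml3 (3.61), the tetraspanin Tspan15 (3.57), the skin protease Klk7 (3.57), Psca (3.55) and Ccdc114 (3.52). A gene named by its clone, 4732456N10Rik, was passed over by the naming rule and is given after its values were seen: at 1102 and 1042 RPKM in siMyc against 40.2 and 47.8 in siGcn5 its difference was 4.58, and it is listed at 0 in siMyc and siGcn5 without dox.

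The largest differences in favour of siGcn5 began with Col10a1, the collagen of hypertrophic cartilage. It stood at 86.5 and 71 RPKM in siGcn5 and at 2.67 and 2.40 in siMyc, which was about the level of siControl, 2.83 and 3.03. The means differed 31.1-fold (log2 difference -4.49, SE 0.10, limma adjusted p = 2.32e-09), and the difference without dox was -4.11. Ogn, a small matrix proteoglycan, and Il1rn, which encodes the interleukin-1 receptor antagonist, were likewise high in siGcn5: Ogn read 32.1 and 22.6 against 1.53 and 2.19 RPKM and Il1rn read 29.6 and 22.8 against 1.88 and 1.98. Ptn (-2.71), a heparin-binding growth factor, Fabp7 (-2.52), a fatty acid binding protein, Got1l1 (-2.79) and the collagenase Mmp13 (-2.41) were higher in siGcn5 as well, with siControl nearer to siMyc. A second pattern was seen for Car12, a surface carbonic anhydrase, at 25.8 and 30.2 RPKM in siGcn5, 23.8 and 26.3 in siControl and 0.981 and 2.95 in siMyc (difference -3.37, SE 0.25, adjusted p = 1.72e-06). Here siGcn5 lay at the control level and siMyc below it. Gldc, the glycine cleavage enzyme, with 6.81 and 7.84 against 0.276 and 0.553 RPKM, shared that order. Tdh, which breaks down threonine and is known from mouse pluripotent cells, read 5.74 and 6.10 in siGcn5, 3.25 and 3.35 in siControl and 0.251 and 0.271 in siMyc (difference -2.45, SE 0.07, adjusted p = 7.16e-09). Smpdl3b (-2.53) and Myc itself completed the 12.

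**Figure D2:**
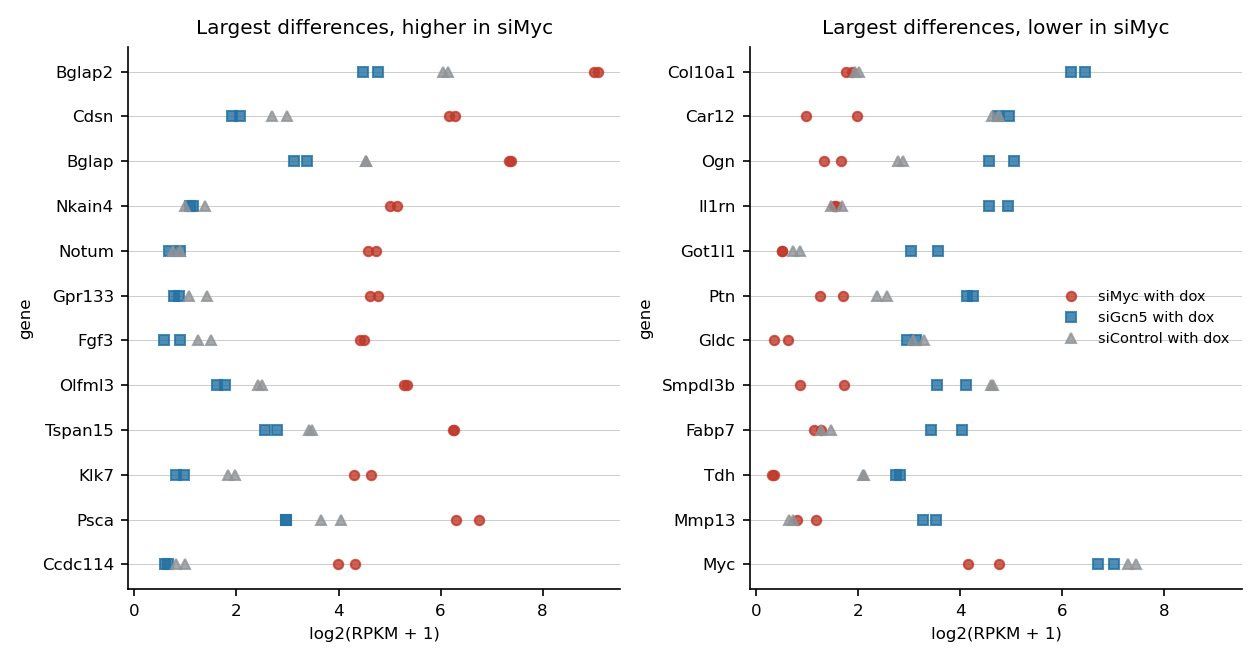
The 12 genes with the largest called differences each way under the naming rule, with log2(RPKM + 1) on the horizontal axis and 1 point for each library of siMyc, siGcn5 and siControl with dox. Left, genes higher in siMyc, where the siMyc points lie to the right of all others; right, genes lower in siMyc, where siControl lies near siMyc for Col10a1, Il1rn, Fabp7 and Mmp13 and near siGcn5 for Car12 and Gldc.

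Genes of ribosome production were lower in siMyc than in siGcn5 almost without exception. Of 51 ribosome biogenesis genes tested, 50 were called lower, against 38.6% of all genes, and Pno1 was not called (difference 0.04). Their median difference was -1.35, beside -0.09 over all genes. Rrp9, a protein of the U3 small nucleolar particle, stood at 27.6 and 35.6 RPKM in siMyc, 137 and 141 in siGcn5 and 127 and 111 in siControl with dox (difference -2.11, SE 0.15, limma adjusted p = 1.47e-06). The siGcn5 libraries were thus at or above the control level for Rrp9, while both siMyc libraries were far below. Rcl1 (-1.86), the snoRNP protein Nhp2 (-1.81) and the nucleolar protein Nolc1 (-1.80) differed by similar amounts. Against the same siControl libraries, which both comparisons share, the list's median was -1.68 in siMyc and -0.37 in siGcn5.

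Other genes of ribosome supply and translation were lower in siMyc too, in each list for a larger share than the 38.6% of all genes. Of 28 subunits and factors of RNA polymerases I and III, which transcribe ribosomal and transfer RNA, 23 were lower in siMyc (median -0.70). Polr1a, the catalytic subunit of polymerase I, read 8.14 and 10.6 RPKM against 35.4 and 38 in siGcn5 (difference -1.87, SE 0.11, limma adjusted p = 4.19e-07), and Polr1b (-1.88), Polr1e (-1.71) and Polr3g (-1.38) were lower as well. Of 78 cytosolic ribosomal protein genes, 73 were lower (median -0.76; under quantile normalization 58 and -0.41), among them Rplp0 at 830.1 and 1013 RPKM in siMyc and 1957 and 2209 in siGcn5. Rpl19 was the 1 member called higher (0.79, named after its values were seen). These genes have many near-identical copies in the genome, so their values are uncertain where reads could be split. Mitochondrial ribosomal proteins were lower for 58 of 76 genes and higher for Mrpl14, Mrpl23, Mrpl54 and Mrps36 (median -0.54; lowest, Mrps16 at -1.41). Translation initiation factors were lower for 27 of 38 genes and higher for Eif4a2 (0.38) and Eif4g3 (0.31), with Eif1ad (-1.39) and Eif3j (-1.33) the lowest. Aminoacyl-tRNA synthetases, which charge transfer RNAs, were lower for 16 of 20 genes, such as Lars (-1.26) and Farsb (-1.22), and Aars was higher (0.66). All 10 chaperonin genes tested were called lower, with the mitochondrial pair Hspe1 (-1.34) and Hspd1 (-1.12) in front. Nuclear pore and transport genes were lower for 32 of 36, led by the importin Ipo4 (-1.10) and the pore proteins Nup210 (-1.09) and Nup205 (-1.04), and the importin Ipo9 was higher (0.31).

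Promoter sequences of 3 genes of these and related groups are shown because each holds the hexamer that Myc and Max are known to bind. Among the genes read of the ribosome, splicing, Prmt5 and nucleotide lists with that hexamer before the start, they were the lowest in siMyc relative to siGcn5. The genes of a chromosome were left out, and only the first promoter with the hexamer was read for each gene. Each sequence shown is 100 bases of the plus strand from RefSeq (build GRCm38.p6), with CACGTG in capitals. Impdh2, which makes guanine nucleotides, lies at chr9:108560279-108560378, Imp4, of the U3 particle, at chr1:34439661-34439760, and Nop2, a ribosomal RNA methyltransferase, at chr6:125131776-125131875.
Impdh2: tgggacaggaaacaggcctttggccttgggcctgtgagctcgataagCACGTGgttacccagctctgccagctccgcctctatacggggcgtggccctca
Imp4: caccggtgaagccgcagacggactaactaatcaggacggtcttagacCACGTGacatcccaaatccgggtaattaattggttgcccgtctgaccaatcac
Nop2: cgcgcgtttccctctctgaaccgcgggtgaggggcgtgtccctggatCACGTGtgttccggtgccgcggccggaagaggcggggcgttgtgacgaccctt
The hexamer begins 110 bases before the start of Impdh2, 121 before that of Imp4 and 60 before that of Nop2. Impdh2 read 75.8 and 86.5 RPKM in siMyc and 203 and 233 in siGcn5 (difference -1.41), Imp4 read 19.1 and 21.3 and 52.8 and 53.9 (-1.36), and Nop2 read 32.2 and 40.4 and 85.1 and 92.6 (-1.28). The sequence CACGTG, which reads the same on both strands, was found in 9.93% of the promoters of the genes tested, each taken from 250 bases before to 50 after a start. The share was 11.8% for promoters of genes called lower in siMyc, 14.6% for those lower by at least 1, 8.80% for those called higher and 8.82% for genes not called. Of 48 promoters matched to ribosome biogenesis genes, 9 (18.8%) held it. Other lists mostly lower in siMyc ranged from 5.88% (serine, glycine and folate enzymes) to 36.4% (arginine methyltransferases and Prmt5 partners). Core spliceosome promoters, at 9.80%, were near the share of all genes tested. Among lists with more genes higher than lower in siMyc, the share was largest for sterol genes, at 22.2%. It was 11.5% for Wnt genes, 7.14% for epithelial genes and 5.88% for collagen and matrix genes. The epidermal, protease, mesenchymal, angiogenic and histone lists stood at 0%. Whether list shares follow the direction of the difference was not tested. These shares describe letters in a window and no binding was measured here.

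Genes of pre-mRNA splicing, the process named in the title of the study, were mostly lower in siMyc. Of 56 core spliceosome genes, 49 were called lower, against 38.6% of all genes, and Snrnp25 was called higher (0.34), with a median of -0.59. Snrnp40, a U5 particle protein, read 9.12 and 14 RPKM in siMyc, 38.2 and 52.9 in siGcn5 and 71.7 and 78.9 in siControl (difference -1.90, SE 0.19, limma adjusted p = 1.35e-05). The Sm and LSm ring proteins Snrpg (-1.37), Lsm7 (-1.05) and Snrpd3 (-1.04) were lower too. Splicing regulators, which choose among splice sites, were less uniform: 27 of 52 were lower and 5 were higher (median -0.27), and under scaling by median ratios 14 were lower and 6 higher. Hnrnpa1 stood at 139 and 179 RPKM in siMyc, 268 and 328 in siGcn5 and 554 and 604 in siControl (difference -0.91, SE 0.14, adjusted p = 2.14e-04), so both knockdowns lay below the control and siMyc lay lowest. Rbm38 was lower by a similar amount (-1.16). The 5 higher members were the cold-inducible Cirbp (25.3 and 30.1 against 8.74 and 9.34 RPKM, difference 1.51), Celf2 (0.97), Khdrbs3 (0.54), the epithelial regulator Esrp2 (0.42) and Qk (0.23). Exon choice within a gene was not measured by these values.

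Protein arginine methyltransferases, whose targets include Sm proteins, were listed together with partners of Prmt5. Of these 12 genes 11 were lower (median -0.79), against 38.6% of all genes, and Prmt2 was not called. Prmt5 stood at 18.6 and 23.9 RPKM in siMyc, 71.5 and 73.9 in siGcn5 and 81.2 and 83.4 in siControl, a 3.42-fold difference between the knockdowns (log2 difference -1.74, SE 0.11, limma adjusted p = 7.12e-07). Its partner Wdr77 followed at 17.3 and 22.7 against 50.7 and 57 RPKM (-1.40), as did Prmt3 (-1.24) and Prmt7 (-1.15). The log2 difference of Prmt5 from siControl was -0.18 in siGcn5 (adjusted p = 0.192) and -1.92 in siMyc, both measured against the same control libraries.

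Subunits of SAGA were called about as often as genes in general. Of 20 SAGA genes, Kat2a, Tada3 (0.39) and Taf6l (0.35) were higher in siMyc, 9 were lower and 8 were not called, against 27.3% higher and 38.6% lower over all genes. The median was -0.18, and -0.04 under scaling by median ratios. The lowest was Ccdc101, which encodes Sgf29, a reader of methylated histone H3, at 8.64 and 8.67 RPKM in siMyc, 20.2 and 20.3 in siGcn5 and 19.6 and 19.1 in siControl (difference -1.14, SE 0.10, limma adjusted p = 4.52e-06). Supt3h (-0.82) and Eny2 (-0.81), the latter of the deubiquitinating module, were lower as well. Kat2b, the paralogue of Kat2a, was low in both, at 2.71 and 2.82 RPKM in siMyc and 4.01 and 3.49 in siGcn5 (difference -0.33, adjusted p = 0.0042, named after its values were seen). Of 9 ATAC genes, 8 were lower, with Wdr5 (-0.99), a histone methylation adaptor, in front, then Tada2a (-0.60). Of 12 genes of the Myc, Max and Mxd network, 8 were lower and 2 higher: Max, the partner of Myc, read 32.2 and 36.6 against 60.4 and 67.9 RPKM (-0.88), the antagonist Mxi1 was lower (-0.76), and the antagonists Mxd1 (0.89) and Mnt (0.42) were higher.

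Enzymes of nucleotide and amine synthesis were lower in siMyc. In purine and pyrimidine synthesis 18 of 25 genes were lower (72%, median -0.96), against 38.6% of all genes. Cad, which starts pyrimidine synthesis, read 11 and 17 RPKM in siMyc, 56.5 and 66.2 in siGcn5 and 80.8 and 77.7 in siControl (difference -2.08, SE 0.16, limma adjusted p = 2.59e-06), and the purine enzyme Gart read 20.2 and 29.9 against 88.3 and 112 (-1.97). The 2 adenylosuccinate synthetases were the members called higher (5 members were called higher without siGcn5 replicate 2): Adssl1, the muscle form, was higher at 20.7 and 20 against 2.50 and 2.18 RPKM (2.68), and Adss was higher by 0.77. Of 19 serine, glycine and folate enzymes, 11 were lower (57.9%), including Shmt1 (-2.28) and Mthfd1 (-1.80). Of 15 genes of polyamines, creatine and methionine salvage, 12 were lower, with Adi1 (-2.22), Gatm (-1.74) and the spermidine synthase Srm (-1.71) among them, and Sat1, which breaks polyamines down, was higher (0.72). Arg1, arginase, was lower in siMyc in a different order: 2.74 and 2.38 RPKM in siMyc, 16.1 and 13.5 in siGcn5 and 1.24 and 1.21 in siControl, so that siGcn5 stood above both. Of 22 glycolysis genes, 12 were lower (54.5%, nearer to the share of all genes), and Eno2 and Slc16a3 were higher. Among the lower were the lactate dehydrogenase genes Ldha (-1.17) and Ldhb (-1.15) and the lactate carrier Slc16a1 (-1.54).

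Target genes of p53, the stress-responsive tumour suppressor, were lower in siMyc for 22 of 25 genes (median -0.98), against 38.6% of all genes. Mdm2, which degrades p53, stood at 52.8 and 58.3 RPKM in siMyc, 178 and 157 in siGcn5 and 109 and 120.3 in siControl (difference -1.57, SE 0.08, limma adjusted p = 2.78e-07), and the control lay between the knockdowns. Trp53inp1 read 5.48 and 6.92 against 32 and 31 RPKM (-2.18), and Eda2r (-2.02) and Psrc1 (-1.92) were lower too. Cdkn1a, the p53-induced inhibitor p21, read 241 and 250 in siMyc, 506 and 465 in siGcn5 and 289 and 284 in siControl (difference -0.98, SE 0.08, adjusted p = 4.48e-06). Against the shared controls the list's median was -0.61 in siMyc and 0.27 in siGcn5. The kinase inhibitors Cdkn2c (0.70) and Cdkn1b (0.47) were higher in siMyc, and 4 of 7 cyclin-dependent kinase inhibitors tested were not called.

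Cell division genes were the group in which the knockdowns could not be separated with dox. Of 50 genes of mitosis and the kinetochore, limma called 0, and at an unadjusted p under 0.05 there was 1 gene higher and 1 lower; limma's voom on recovered reads called 1. Differences ran from -0.44 to 0.52 with a median of 0.04, and a gene's 95% interval reached, at the median, 0.53 to each side, so differences of that size could be missed. The member nearest to a call was the condensin Smc4, at 23.4 and 25.5 RPKM in siMyc and 16.8 and 21.4 in siGcn5 (difference 0.35, adjusted p = 0.0551, and 0.0173 to 0.341 as single libraries were left out). Smc4 was called higher in 9 of the alternatives, both scalings and voom among them. Cdk1, the kinase that starts mitosis, is given after its values were seen: siMyc read 16.9 and 20.8, siGcn5 read 12.6 and 23.9 and siControl read 45.4 and 55.1 RPKM. Both knockdowns were therefore well below the control for Cdk1, and the siGcn5 libraries bracketed the siMyc libraries. That spread mattered for the list: the summed levels were 436 and 769 RPKM in siGcn5, beside 576 and 676 in siMyc and 1606 and 1839 in siControl. Without siGcn5 replicate 1, 8 genes were called lower in siMyc (median -0.31), and without replicate 2, 15 were called higher (median 0.42). Of 41 DNA replication genes, 8 were lower, 3 were higher (Gins2, Rfc2 and Pole2) and 30 were not called. Both shares, 19.5% and 7.32%, were under those of all genes, 38.6% lower and 27.3% higher. Orc2, of the origin recognition complex, was lowest at 10.9 and 13.1 against 26.9 and 31.3 RPKM (-1.21, SE 0.13, adjusted p = 1.58e-05), then Pold2 (-1.14). The replication count also moved with single libraries, from 11 to 6 without siMyc replicate 1 and to 23 without siGcn5 replicate 1, and the median, -0.17, became 0.08 without siGcn5 replicate 2, with 7 genes higher and 4 lower.

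Without dox the same genes did differ between the knockdowns. No time from transfection to harvest is given here for the libraries without dox. A difference in that time cannot be told apart from dox. All 50 mitosis genes were called higher in siMyc without dox, against 22.2% of all genes (58.7% were called in either direction), with a median of 1.36, and so were 31 of 41 replication genes (median 0.77). Cdk1 there read 26.7 and 26.1 RPKM in siMyc and 7.71 and 12.6 in siGcn5. The change of the difference with dox was tested itself, as the difference with dox minus that without, in a contrast where no library serves on both sides. It was called for 4609 of 13175 genes (35%), above 0 for 2370 (18%) and below 0 for 2239 (17%). Of the mitosis genes, 47 of 50 were called below 0, and of the replication genes 30 of 41. The ribosome biogenesis genes shifted in the same direction for 35 of 51, from a median of -0.71 without dox to -1.35 with it. So did 30 of 56 core spliceosome genes and 17 of 25 nucleotide synthesis genes. Of 78 cytosolic ribosomal protein genes 4 were called below 0 (5.13%), a smaller share than the 17% of all genes. For ribosomal proteins the knockdowns already differed without dox, with 65 of 78 genes lower in siMyc, and for p53 targets with 23 of 25 lower. Of all genes, 36.5% were called lower in siMyc without dox.

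**Figure D3:**
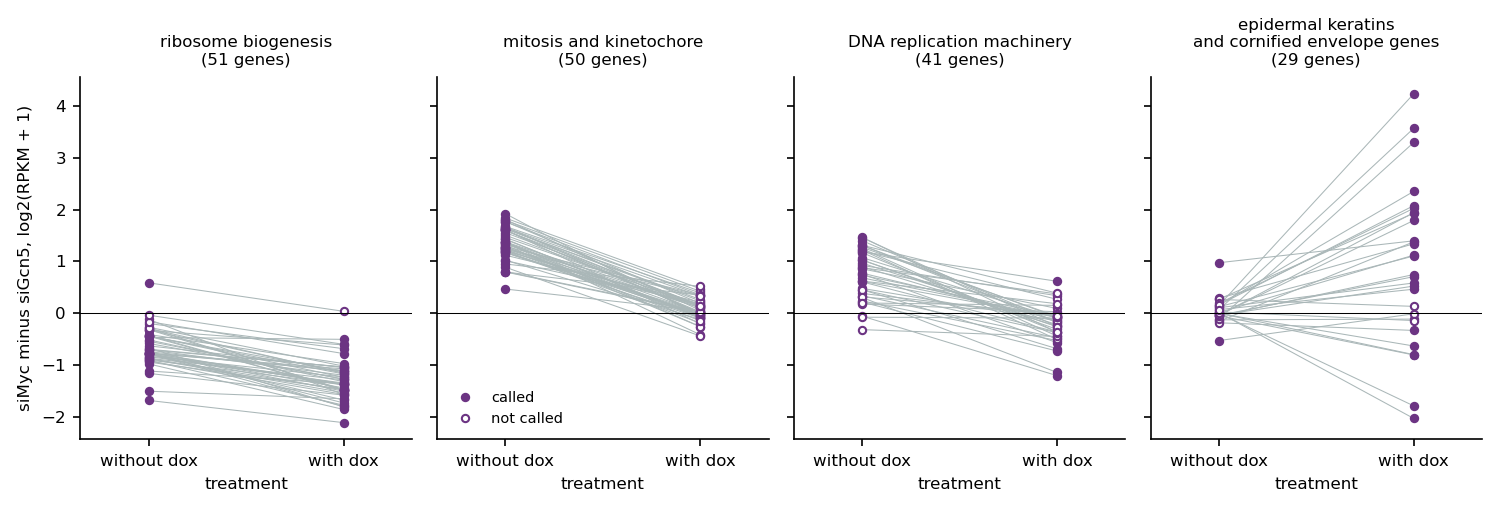
Difference between siMyc and siGcn5 on the log2(RPKM + 1) scale (vertical axis) for each tested member of 4 gene lists, without and with dox (horizontal axis), 1 line for each gene, filled where called and open where not. Mitosis genes lie above 0 without dox and around 0 with dox, ribosome biogenesis genes other than Pno1 lie below 0 in both, and epidermal genes spread with dox.

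**Figure D4:**
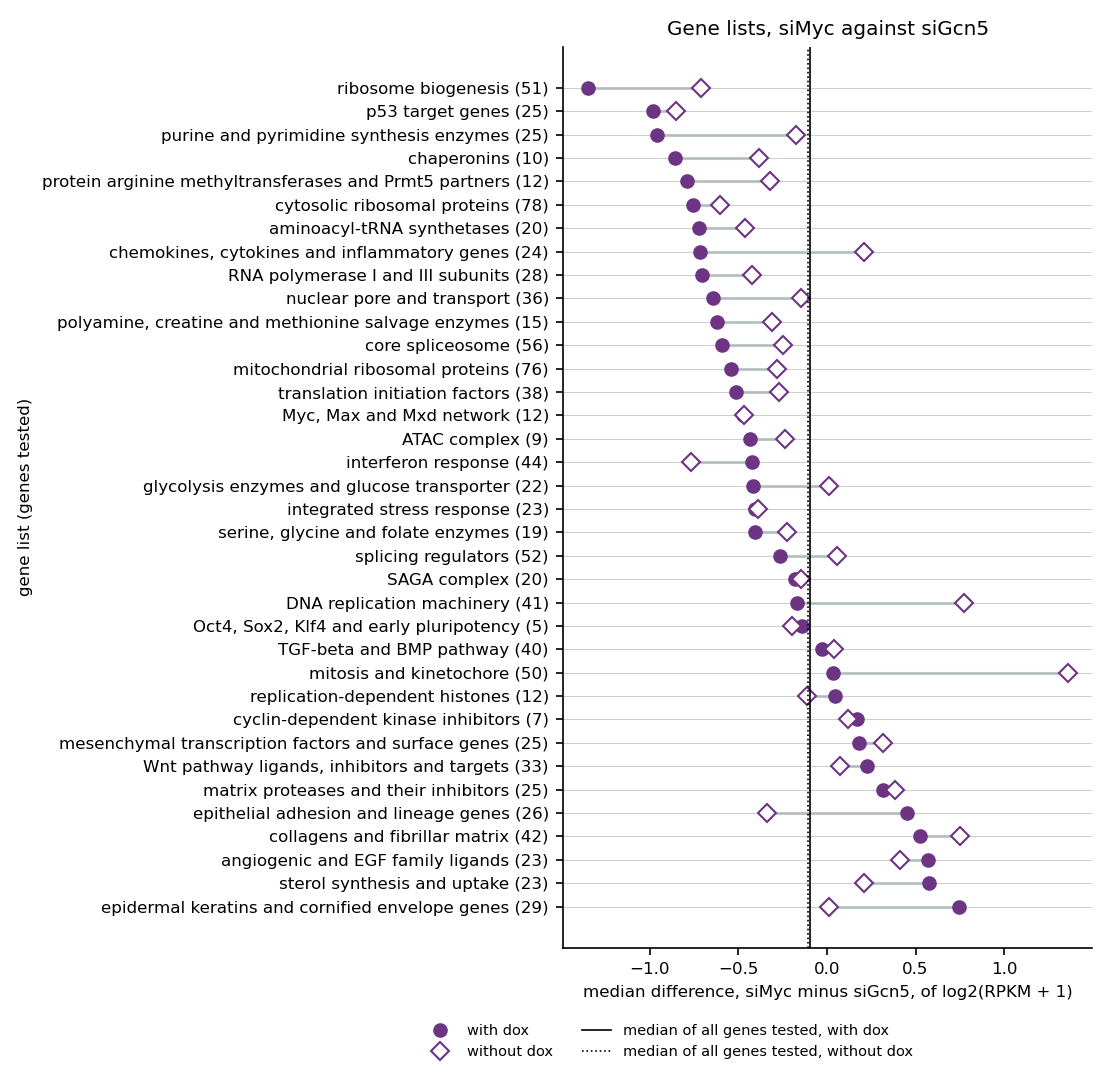
Median difference between siMyc and siGcn5 of each gene list (horizontal axis, log2(RPKM + 1)), with dox (filled circles) and without dox (open diamonds), with the number of genes tested beside each name. The vertical lines are the medians of all genes tested, -0.09 with dox and -0.11 without, and the longest connecting line belongs to mitosis.

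Epithelial and epidermal genes were higher in siMyc more often than lower with dox. Of 29 epidermal genes tested of 38 listed, 19 were higher in siMyc with dox, against 27.3% of all genes, and 6 were lower (median 0.75, and 1.17 with voom on recovered reads). Besides Cdsn and Klk7, Cnfn, which encodes cornifelin, stood at 1081 and 978 RPKM in siMyc, 95.7 and 112 in siGcn5 and 165 and 124 in siControl (difference 3.30, SE 0.13, limma adjusted p = 4.66e-08). S100a14 was at 113 and 89 against 17.8 and 19.9 RPKM (2.35). The 6 lower members, given after their values were seen, were Sprr1b (-2.03), Ly6d (-1.79), Tgm1 (-0.81) and the keratins Krt6a (-0.80), Krt1 (-0.63) and Krt17 (-0.33), so the list did not move as 1 block. Without dox 1 epidermal gene was higher, 1 was lower and 27 were not called. The 37 listed genes found in the files then summed to only 16.8 and 12.6 RPKM in siMyc and 12.0 and 9.90 in siGcn5. With dox they summed to 4300 and 3992 in siMyc and 1331 and 1554 in siGcn5. At such low levels without dox, the change with dox largely repeats the difference with dox. That change was called upward for 15 genes and downward for 4, against 18% and 17% of all genes. Without dox 2 epithelial adhesion and lineage genes were higher and 14 lower, against 22.2% and 36.5% of all genes. Of 26 tested of 38 listed, 15 were higher and 6 lower with dox (median 0.45). The cadherin Cdh1, a defining epithelial gene, went against the majority: it read 4.97 and 5.12 RPKM in siMyc, 15.9 and 19.1 in siGcn5 and 18.3 and 15.7 in siControl (difference -1.61, SE 0.10, adjusted p = 6.93e-07). Desmosome genes were split, with Pkp1 (1.33), Dsc3 (1.25) and Dsc2 (1.16) higher and Dsp (-0.42) and Pkp3 (-0.90) lower. In bulk RNA, fewer cells of a type and less RNA per cell cannot be told apart.

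Matrix and mesenchymal genes were also higher in siMyc more often than lower. Of 42 collagen and matrix genes, 27 were higher and 6 lower (median 0.53), against 27.3% and 38.6% of all genes. Decorin, Dcn, a proteoglycan that coats collagen, was at 272 and 293 RPKM in siMyc, 56.1 and 65.2 in siGcn5 and 100.2 and 103 in siControl (difference 2.21, SE 0.14, limma adjusted p = 8.05e-07), and Col6a3 (2.10) and Fbln2 (1.97) were higher, while Ogn was lower as above. Among proteases and inhibitors 11 of 25 were higher (44%) and 6 lower (24%). Timp2, a metalloprotease inhibitor, read 637 and 595 against 87.8 and 88.1 RPKM (2.79), and Timp3 (2.27) and the procollagen protease Adamts2 (3.41) were higher too. Of 25 mesenchymal genes 11 were higher, led by S100a4 (1.55), Ncam1 (1.33) and N-cadherin, Cdh2 (1.03), and 5 were lower: Snai1 (-0.90), Twist2 (-0.43), Tbx18 (-0.29), Pdgfrb (-0.71) and Acta2 (-0.73).

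Markers of cell types were read beside these groups. The 12 fibroblast markers summed to 7146 and 7092 RPKM in siMyc, 4867 and 4258 in siGcn5 and 3874 and 3453 in siControl with dox, with 7 of 12 higher in siMyc and 1, Pdgfrb, lower, and all 12 passed the filter. Endothelial markers summed to 32.4 and 32.2 RPKM in siMyc against 15.3 and 14.9 in siGcn5, with Pecam1, Cdh5 and Tie1 under 1 RPKM in all 4 libraries, and of 5 tested Esam (2.98) and Ramp2 (1.93) were higher and Tek (-0.71) lower. Skeletal muscle markers summed to 270 and 261 against 114 and 88.7, with Myod1 and Myog under 1 RPKM and Acta1 the 1 member called higher (1.53). Neural markers summed to 311 and 372 against 230.3 and 292 (Gap43, Stmn2 and Tubb3 higher and Nefl lower of 5 tested, with Sox10 and Dcx under 1 RPKM), blood markers to 9.01 and 8.88 against 7.19 and 8.52 with Ptprc under 1 RPKM (Cd68 higher and Hba-a1 lower of 3 tested), and adipocyte markers to 16.4 and 16.6 against 29.5 and 29 (Fabp4 and Cebpa lower of 4 tested, with Adipoq and Plin1 under 1 RPKM). Over all genes 27.3% were called higher and 38.6% lower in siMyc. Marker lists with 3 to 5 genes tested are too short to be set against those shares. The part of these cell types in the differences was not tested.

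Signalling genes differed member by member, and TGF-beta, BMP and Wnt genes were called about as often as the 65.9% of all genes. Of 40 genes of the TGF-beta and BMP pathway 14 were higher in siMyc and 11 lower (6 under scaling by median ratios), and the median, -0.03, was near that of all genes and changed sign under scaling by median ratios (0.07), without siMyc replicate 2 (0.08) and without siGcn5 replicate 1 (0.08). The ligand Tgfb1 read 25.4 and 23.1 RPKM in siMyc against 5.05 and 5.09 in siGcn5 (difference 2.05, SE 0.17, limma adjusted p = 2.93e-06), its receptor Tgfbr2 read 61.9 and 64.9 against 18.2 and 16.8 (1.80), and Inhbb (1.77) and the latency protein Ltbp1 (1.75) were higher. The BMP-responsive Id4 (-1.47) and the matrix protein Tgfbi (-1.54), given after their values were seen, were lower. Of 33 Wnt pathway genes 14 were higher and 7 lower (4 without siMyc replicate 2), among the latter the nuclear factor Lef1 (-0.92, also named after its values were seen). Among the higher ones the ligand Wnt7a was at 57.5 and 49.3 against 6.44 and 7.29 RPKM (2.79), the nuclear factor Tcf7 was higher (2.71), and the inhibitors Notum and Dkk2 (1.98) were higher as well. Of 23 angiogenic and EGF family genes 13 were higher (56.5%), against 27.3% of all genes, and Angpt2 was lower (-0.48). Placental growth factor, Pgf, stood at 44.2 and 38.8 RPKM in siMyc, 3.49 and 2.86 in siGcn5 and 2.33 and 1.62 in siControl (3.35), endothelin Edn2 at 95.8 and 98.8 against 11.7 and 10.4 (3.03), and the receptors Flt4 (2.97) and Flt1 (2.18) were higher. Of 23 genes of sterol synthesis and uptake 13 were higher (56.5%, median 0.57), also against 27.3% of all genes. Tm7sf2 among them read 21.3 and 20.7 against 3.80 and 4.38 RPKM (2.12). In the same list 2 genes were lower, Insig1 (-0.49), which restrains sterol synthesis, among them.

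Of 24 chemokine, cytokine and inflammatory genes tested 14 were lower in siMyc, against 38.6% of all genes, 3 were higher (Ptgs2, Ptges and Vcam1) and 7 were not called, with a median of -0.72. Among the 16 with a mean RPKM of at least 5, 6 were lower and 3 higher, with a median of -0.25. The summed levels of the 34 genes listed overlapped between the groups, at 499 and 387 RPKM in siMyc and 633 and 456 in siGcn5. The chemokine Ccl20 read 6.21 and 3.62 RPKM in siGcn5 and 0.247 and 0.364 in siMyc (difference -2.15, SE 0.20, limma adjusted p = 7.44e-06), the adhesion molecule Icam1 read 11.5 and 7.61 and 1.76 and 1.64 (-1.94), and the neutrophil chemokine Cxcl1 was lower in siMyc as well (-1.36). In each of these siGcn5 replicate 1 was above replicate 2. Of 44 interferon response genes 10 were lower in siMyc, 5 were higher and 29 were not called. Both shares, 22.7% lower and 11.4% higher, were under the 38.6% and 27.3% of all genes. Bst2, an antiviral membrane protein, was at 282 and 140.1 RPKM in siGcn5, 58.6 and 55.2 in siMyc and 61 and 55.6 in siControl (difference -1.79, SE 0.33, adjusted p = 8.07e-04), and Ifit1 was at 10.1 and 2.21 and 0.867 and 1.20 (-1.56, adjusted p = 0.0206, rising to 0.185 when 1 library was left out). The 46 listed genes found in the files summed to 1495 and 941 RPKM in siGcn5, 1229 and 1149.6 in siMyc and 518 and 500.5 in siControl, and the result moved with single libraries: the median of -0.42 became 0.09 without siGcn5 replicate 1, without siGcn5 replicate 2 it became -0.84 with 29 genes lower and 2 higher, and without siMyc replicate 1 or replicate 2 the number called became 9 in all. The 5 higher members were Oas2 (0.87), Zbp1 (1.07), Parp9 (0.59) and the class I genes H2-K1 (0.49) and H2-D1 (1.25). Of 23 genes of the integrated stress response, 11 were lower in siMyc, with the amino acid carrier Slc7a5 (-1.45), Ddit4 (-1.23) and Sesn2 (-1.16) among them, and Atf3 (0.50) and Vldlr (1.06) were higher. Of 12 histone genes tested 3 were higher and 1, Hist1h2ab, lower (a call lost in 7 of the alternatives). These shares, 25% and 8.33%, were no larger than those of all genes, 27.3% higher and 38.6% lower. Hist2h3c2 stood at 4.44 and 3.37 against 0.782 and 0.551 RPKM (1.55), and near-identical histone copies make the histone values uncertain.

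Single genes whose difference turned with dox were led by Mest, an imprinted gene. Without dox Mest stood at 6.80 and 6.42 RPKM in siMyc and 62 and 64.4 in siGcn5 (difference -3.08), and with dox the order was reversed, at 83.6 and 91.2 and 29.1 and 39.5 (difference 1.34). The change between the 2 differences was 4.41 (SE 0.17, limma adjusted p = 2.28e-07). The microRNA gene Mir335, which lies within Mest, gave 4.60, and reads of Mest and Mir335 cannot be told apart. For Bglap2 and Cdsn the change was 4.36 and 4.09, and without dox Bglap2 read 0.176 and 0.196 RPKM in siMyc and 0.308 and 0 in siGcn5. In the other direction the change was -2.74 for Car12, -2.45 for Tdh, -2.27 for the carboxylesterase gene Ces2g (1.14 and 1.54 against 10.7 and 9.83 RPKM with dox) and -2.25 for Ccnb1ip1 (0.587 and 1.43 against 7.70 and 10 with dox, and 20.4 and 20.4 in siControl). Under limma's voom on recovered reads the change was no longer called for Bglap2 or Ccnb1ip1.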

How the data were processed

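RNA was read in 12 libraries of secondary 1B mouse embryonic fibroblasts, 6 groups of 2, grouped by their labels. Libraries were made with a stranded total RNA kit after removal of ribosomal RNA and sequenced on an Illumina HiSeq instrument, per the labels' protocols. The authors deposited 1 table per library with an RPKM value for each of 23284 gene symbols. Bowtie 0.12.8, TopHat2 2.0.9, edgeR, HTSeq and affy were used with mm9 as the genome build, per the submitters' processing notes. The role of each tool, the annotation and any strand setting: not given in the sources used here. RPKM divides by length and total, so a large change of a few abundant genes moves all others.

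Genes with an RPKM of at least 1 in at least 2 of 12 libraries were tested on log2(RPKM + 1), a pseudocount of 1, with limma 3.58.1 (R 4.3.3): 1 term per group over all 12 libraries, moderated with an intensity trend, 6 residual and 4.17 prior degrees of freedom, and Benjamini-Hochberg adjustment at 0.05. The deposited RPKM values fell on steps of whole reads, within 0.05 read, for 13175 of 13175 genes tested, which gave the depths and the reads for limma's voom. Python 3.11.15 and matplotlib 3.10.9 were used for promoters and figures. The fit was tested on simulated data.

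The comparison and the gene lists were chosen with earlier results of these data known. The genes named are the siRNA targets and reprogramming factors, up to 12 with the largest called differences each way whose groups do not overlap and whose higher group averages at least 2 RPKM, up to 4 called members of each process list by size of difference (the smallest p where none was called), and up to 4 each way for the change with dox; predicted and clone-named genes were passed over. Exceptions are marked in the text. Alternatives were another pseudocount, 2 filters, 2 scalings, the compared libraries alone, a replicate block, array weights, voom on recovered reads and leaving out each library. Promoter coordinates belong to RefSeq's GRCm38.p6, not to mm9. The files give gene symbols without coordinates. Values of some members of the sterol list are not reported here.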

Additional observations from a re-analysis of the deposited data

Results flagged for a closer look

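The siMyc minus siGcn5 difference itself differed between dox and no dox for 4609 genes by limma's test of that change. Among genes named for it, the difference with dox exceeded that without by 4.60 on the log2 scale for Mir335, 4.41 for Mest, 4.36 for Bglap2 and 4.09 for Cdsn. It was below that without dox for Car12 (-2.74), Tdh (-2.45), Ces2g (-2.27) and Ccnb1ip1 (-2.25). Groups of 2 libraries are too small for a test of single outlying libraries.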

How the results depend on the processing

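The count of 8687 genes called with dox lay between 5978 (mean RPKM of at least 5, of 8748 genes) and 10323 (no filter, of 20788 genes) over the other filters, was 7572 on the 4 libraries alone and 8574 with voom on recovered reads, and ran from 7417 (without siMyc replicate 1 with dox) to 8691 as single libraries were left out, with a lone library assumed to vary like the other groups. The change with dox, 4609 genes, was 3746 without the siControl libraries, 4077 with voom, and 3153 (without siMyc replicate 1 with dox) to 5001 (without siGcn5 replicate 1 with dox) on leaving out libraries. Neither total moved by over 1.5 times, while single directions did: genes higher with dox went from 3599 to 2313 and changes above 0 from 2370 to 1513 under a mean RPKM of at least 5, and changes below 0 from 2239 to 1469 without siMyc replicate 1 with dox. Of 3516 values of named genes under alternatives, 3489 kept their direction and side of the threshold, 17 lost the call and 10 gained it. The calls that moved were those of Hist1h2ab, Ifit1, Mcm7, Pou5f1, Smc4 and Sox2 with dox and of Bglap2 and Ccnb1ip1 for the change with dox. List counts moved by over 1.5 times in 25 of 756 cases, and list medians by more than the spread between replicates in 104 of 756. Under a mean RPKM of at least 5, fewer genes were tested.

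The replicate numbers of the labels were tried as a pairing. Deviations of same-numbered libraries correlated across genes at 0.489 between siMyc and siGcn5 with dox and at 0.0933 to 0.489 over 15 pairs of groups. No label says that a number marks a shared culture, batch or day, so the positive correlations are a hint from the data and not from the design. With the replicate block 9490 genes were called with dox and 5990 for the change with dox, and of the mitosis genes 1 was called higher, Smc4, and 1 lower. A test by edgeR on recovered reads was not run, because the deposited unit is RPKM.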
